A study of Mus musculus with 8 samples.

Results

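Type I interferon-stimulated genes were followed in XCR1+ dendritic cells sorted from mouse spleen at steady state. The list held 36 genes that interferon alpha and beta are known to induce. A gene entered through a row of the array table annotated to exactly 1 symbol, and the row with the highest mean was kept where a gene had several. By this rule 34 of the 36 genes were measured, out of 19938 genes in all. The row for Isg15 is shared with a predicted gene and no row of 1 symbol named Ifi44, so neither was analysed here. No listed gene had more than 1 row of 1 symbol. Oas1a and Sp100 were also named in rows with several symbols, which were left out.

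The study concerned the maturation that some of these cells undergo without infection. All cells came from Il12b-EYFP reporter mice that had received no treatment, in which a yellow fluorescent protein marks cells using the Il12b gene. Cells were gated as Lin-, Bst2-/low, CD11c high and CD8α+, then divided by surface CCR7, the chemokine receptor that guides dendritic cells to T cell zones, and by the reporter. CCR7+Il12b+ cells (n = 2) carried CCR7 and the reporter, CCR7+Il12b- cells (n = 3) carried CCR7 alone, and immature cells (n = 3) carried neither. These names refer to the sort and not to RNA. The mean log2 level of Il12b RNA was 12.28 in CCR7+Il12b+, 10.81 in CCR7+Il12b- and 7.03 in immature cells. Reporter-negative CCR7+ cells thus held Il12b RNA well above immature cells. Ccr7 RNA stood at 12.61, 12.22 and 8.64 in the same order. Strain background, age and sex of the mice were not given in the sources used here. Whether replicates are separate mice is not stated in the labels, and the p-values therefore cover only the spread among these arrays, part of which may be technical. A sorted fraction can be mixed, and fewer cells that express a gene cannot be told apart from less RNA per cell. The gate itself removed cells with much Bst2 protein, and Bst2 is also a member of the list.

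Type I interferons bind a receptor built from Ifnar1 and Ifnar2, whose kinases Jak1 and Tyk2 pass the signal on inside the cell. Stat2 and Irf9 take part in the complex that binds interferon-stimulated response elements and switches on antiviral genes. Some of these genes can also be driven by Irf1 and other interferon regulatory factors, and dendritic cells keep low interferon signalling without infection.

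The response element was searched in RefSeq promoter windows of GRCm38.p6, which run from 250 bases before to 50 bases after a start site. The motif was GAAANNGAAA, or TTTCNNTTTC on the other strand, and matches were allowed to overlap. It was present in 3.99% of the 27025 genes with a window and in 3.44% of the windows. Of the 34 measured members 24 had a window, and 10 of them held the motif. These were Ifih1, Ddx58, Eif2ak2, Oas3, Oas1a, Trim30a, Bst2, Rsad2, Ifit3 and Ifit1. The 160 bases before the start are shown 5′ to 3′ for members that stood at the ends of the response or held matches, with matches in capitals. They lie at chr12:26456453-26456612 on the minus strand (Rsad2), chr19:34640729-34640888 on the plus strand (Ifit1), chr19:34583369-34583528 on the plus strand (Ifit3), chr5:120777660-120777819 on the minus strand (Oas3), chr7:104465194-104465353 on the minus strand (Trim30a), chr8:71537473-71537632 on the minus strand (Bst2), chr6:57580832-57580991 on the plus strand (Herc6) and chr6:3399572-3399731 on the minus strand (Samd9l).
Rsad2: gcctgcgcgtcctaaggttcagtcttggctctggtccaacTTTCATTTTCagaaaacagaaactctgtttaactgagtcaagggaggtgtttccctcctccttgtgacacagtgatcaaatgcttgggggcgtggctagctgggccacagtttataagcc
Ifit1: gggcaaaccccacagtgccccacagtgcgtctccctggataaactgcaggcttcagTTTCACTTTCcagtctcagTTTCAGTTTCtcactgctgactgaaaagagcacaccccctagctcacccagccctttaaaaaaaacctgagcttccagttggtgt
Ifit3: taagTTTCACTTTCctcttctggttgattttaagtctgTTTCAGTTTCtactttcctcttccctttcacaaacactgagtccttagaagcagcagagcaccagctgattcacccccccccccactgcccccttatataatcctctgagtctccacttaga
Oas3: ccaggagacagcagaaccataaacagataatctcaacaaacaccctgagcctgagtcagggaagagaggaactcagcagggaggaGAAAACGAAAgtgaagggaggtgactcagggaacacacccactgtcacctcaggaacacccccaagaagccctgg
Trim30a: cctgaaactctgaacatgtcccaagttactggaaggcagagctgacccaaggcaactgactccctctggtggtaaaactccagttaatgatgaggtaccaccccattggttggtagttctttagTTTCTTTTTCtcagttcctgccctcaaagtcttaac
Bst2: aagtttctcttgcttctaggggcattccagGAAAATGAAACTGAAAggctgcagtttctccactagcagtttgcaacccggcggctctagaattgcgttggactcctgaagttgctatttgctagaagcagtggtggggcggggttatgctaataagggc
Herc6: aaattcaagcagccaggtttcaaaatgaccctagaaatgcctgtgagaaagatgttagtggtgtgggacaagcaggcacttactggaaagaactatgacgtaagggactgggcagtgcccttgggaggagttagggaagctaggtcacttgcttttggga
Samd9l: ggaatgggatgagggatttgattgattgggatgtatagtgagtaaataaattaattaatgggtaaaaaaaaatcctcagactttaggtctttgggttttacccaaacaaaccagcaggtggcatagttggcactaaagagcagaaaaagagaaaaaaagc
The first match base lay 120 bases before the start in Rsad2, 104 and 85 bases before it in Ifit1, and 156 and 122 bases before it in Ifit3. Oas3 held a match 75 bases and Trim30a a match 36 bases before the start, and those of Bst2, at 130 and 124 bases, overlap. The shown stretches of Herc6 and Samd9l held no match to these letters, nor did the rest of their windows.

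The genes did not move as 1 block. Herc6, Usp18, Rsad2 and Oasl1 rose in both CCR7+ fractions, while Samd9l, Trim30a, Dhx58 and Eif2ak2 fell in both. Against immature cells, CCR7+Il12b- cells had 15 members higher and 8 lower of 34, which is 44.1% and 23.5%. Over all genes tested the shares were 9.10% higher and 14.5% lower. CCR7+Il12b+ cells had 11 members higher and 9 lower than immature cells, or 32.4% and 26.5%, against 14.1% and 17.9% of all genes. The threshold for a call was an adjusted p of 0.05 in limma, adjusted over all genes.

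Between the CCR7+ fractions the members leaned the other way. CCR7+Il12b+ cells had 2 members higher and 7 lower than CCR7+Il12b- cells, or 5.88% and 20.6%, where 2.61% and 4.47% of all genes were called. This count fell to 3 lower members without CCR7+Il12b- replicate 2 or without CCR7+Il12b+ replicate 2, and to 1 higher member without CCR7+Il12b- replicate 2 or CCR7+Il12b+ replicate 1. The median log2 difference of the members was 0.34 for CCR7+Il12b- cells against immature cells, 0.16 for CCR7+Il12b+ cells against immature cells and -0.24 between the CCR7+ fractions. The medians of all genes were 0.06, 0.09 and 0.02 in the same comparisons. Both comparisons with immature cells use the same 3 immature arrays, so their values are not independent.

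The mean log2 level over the 34 members was 7.05 to 7.21 in the CCR7+Il12b+ samples, 7.29 to 7.41 in the CCR7+Il12b- samples and 7.02 to 7.07 in the immature samples. Every CCR7+Il12b- sample lay above every other sample on this mean, while the CCR7+Il12b+ and immature samples overlapped. Values are log2 intensities on which 1 unit is a doubling, and they do not compare 1 gene's abundance with another's. Background was set at 4.98, the level under which 95% of 1194 olfactory and vomeronasal receptors lay. Member means lay below it for 2 genes in CCR7+Il12b+ cells, 1 in CCR7+Il12b- cells and 4 in immature cells.

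**Figure D1:**
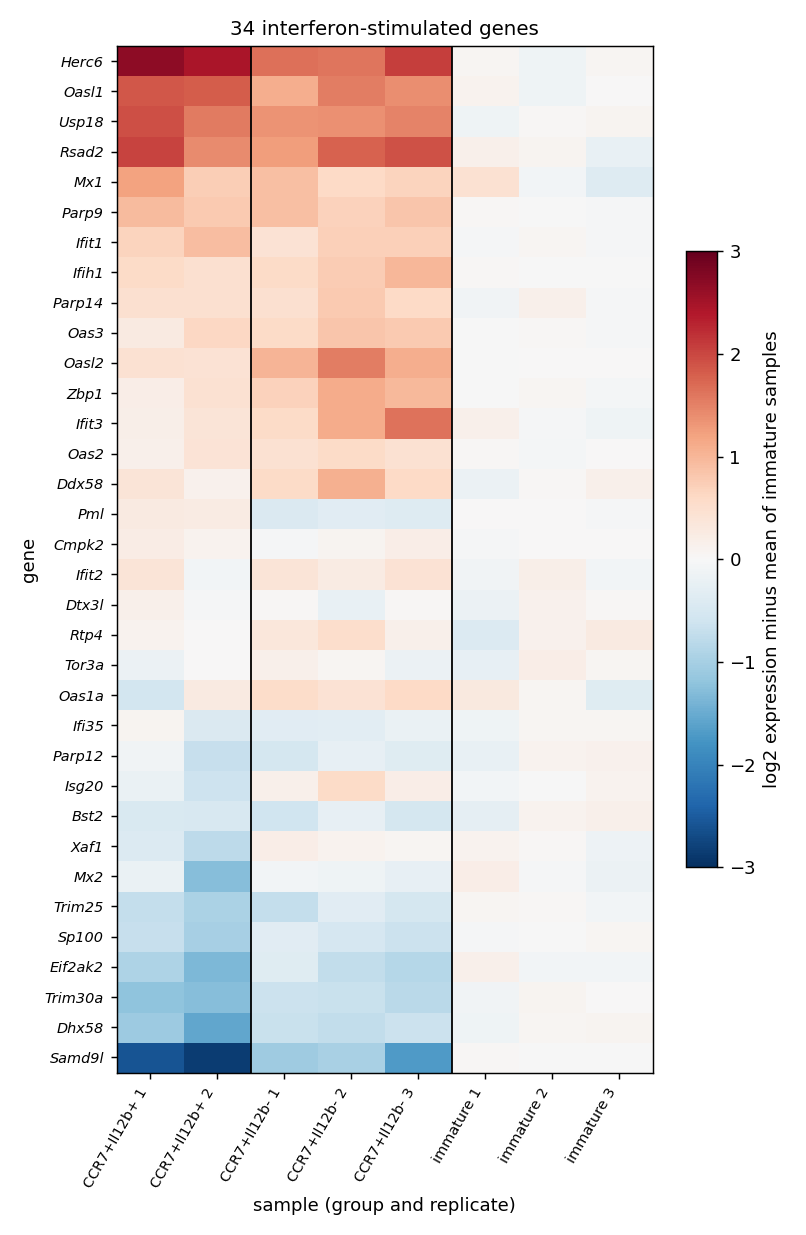
Log2 level of each of the 34 measured interferon-stimulated genes in each of the 8 samples, relative to the mean of that gene in immature cells, with genes in rows ordered by the difference of CCR7+Il12b+ from immature cells and samples in columns by group. Herc6, Usp18, Oasl1 and Rsad2 are higher in all 5 CCR7+ samples, and Samd9l, Dhx58 and Trim30a are lower in all 5.

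The ISG15 system attaches the ubiquitin-like protein Isg15 to other proteins and removes it. Herc6, the main ligase for Isg15 in mice, had the largest rise of the list. Its log2 level was 9.34 and 9.12 in CCR7+Il12b+ cells, 8.32, 8.27 and 8.75 in CCR7+Il12b- cells and 6.73, 6.53 and 6.73 in immature cells. The 3 groups did not overlap and stood in that order. The log2 difference from immature cells was 2.56 ± 0.16 in CCR7+Il12b+ cells (SE, adjusted p = 5.61e-07) and 1.78 ± 0.14 in CCR7+Il12b- cells (adjusted p = 8.51e-06). Herc6 differed between the CCR7+ fractions by 0.78 ± 0.16 (adjusted p = 0.0133), a call that was lost without CCR7+Il12b- replicate 2 (adjusted p = 0.0567) or CCR7+Il12b+ replicate 1 (adjusted p = 0.109).

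Usp18, the protease that removes Isg15 and also damps signalling at Ifnar2, rose with it. It had log2 levels of 9.18 and 8.82 in CCR7+Il12b+ cells, 8.60, 8.63 and 8.74 in CCR7+Il12b- cells and 7.13, 7.30 and 7.35 in immature cells. All CCR7+ samples lay above all immature samples. The difference from immature cells was 1.74 ± 0.14 in CCR7+Il12b+ cells (adjusted p = 2.75e-06) and 1.40 ± 0.12 in CCR7+Il12b- cells (adjusted p = 1.55e-05). The difference of 0.35 ± 0.14 between the CCR7+ fractions was not called (adjusted p = 0.19).

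Trim25, a ubiquitin and Isg15 ligase that assists Ddx58, went the other way. Its levels were 8.71 and 8.45 in CCR7+Il12b+ cells, 8.71, 9.07 and 8.87 in CCR7+Il12b- cells and 9.47, 9.44 and 9.32 in immature cells. It fell by 0.83 ± 0.14 in CCR7+Il12b+ cells (adjusted p = 0.000707) and by 0.53 ± 0.12 in CCR7+Il12b- cells (adjusted p = 0.00954), both against immature cells without overlap. The other enzymes of the Isg15 pathway in the further list, the activating enzyme Uba7 and the conjugating enzyme Ube2l6, also rose. Uba7 differed from immature cells by 1.95 ± 0.19 in CCR7+Il12b+ cells (adjusted p = 1.75e-05) and 1.31 ± 0.17 in CCR7+Il12b- cells (adjusted p = 3e-04). Ube2l6 differed by 2.60 ± 0.29 (adjusted p = 4.13e-05) and 1.65 ± 0.26 (adjusted p = 0.000934) in the same comparisons. Its 3 immature samples were spread, at 5.52, 6.64 and 6.72.

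**Figure D2:**
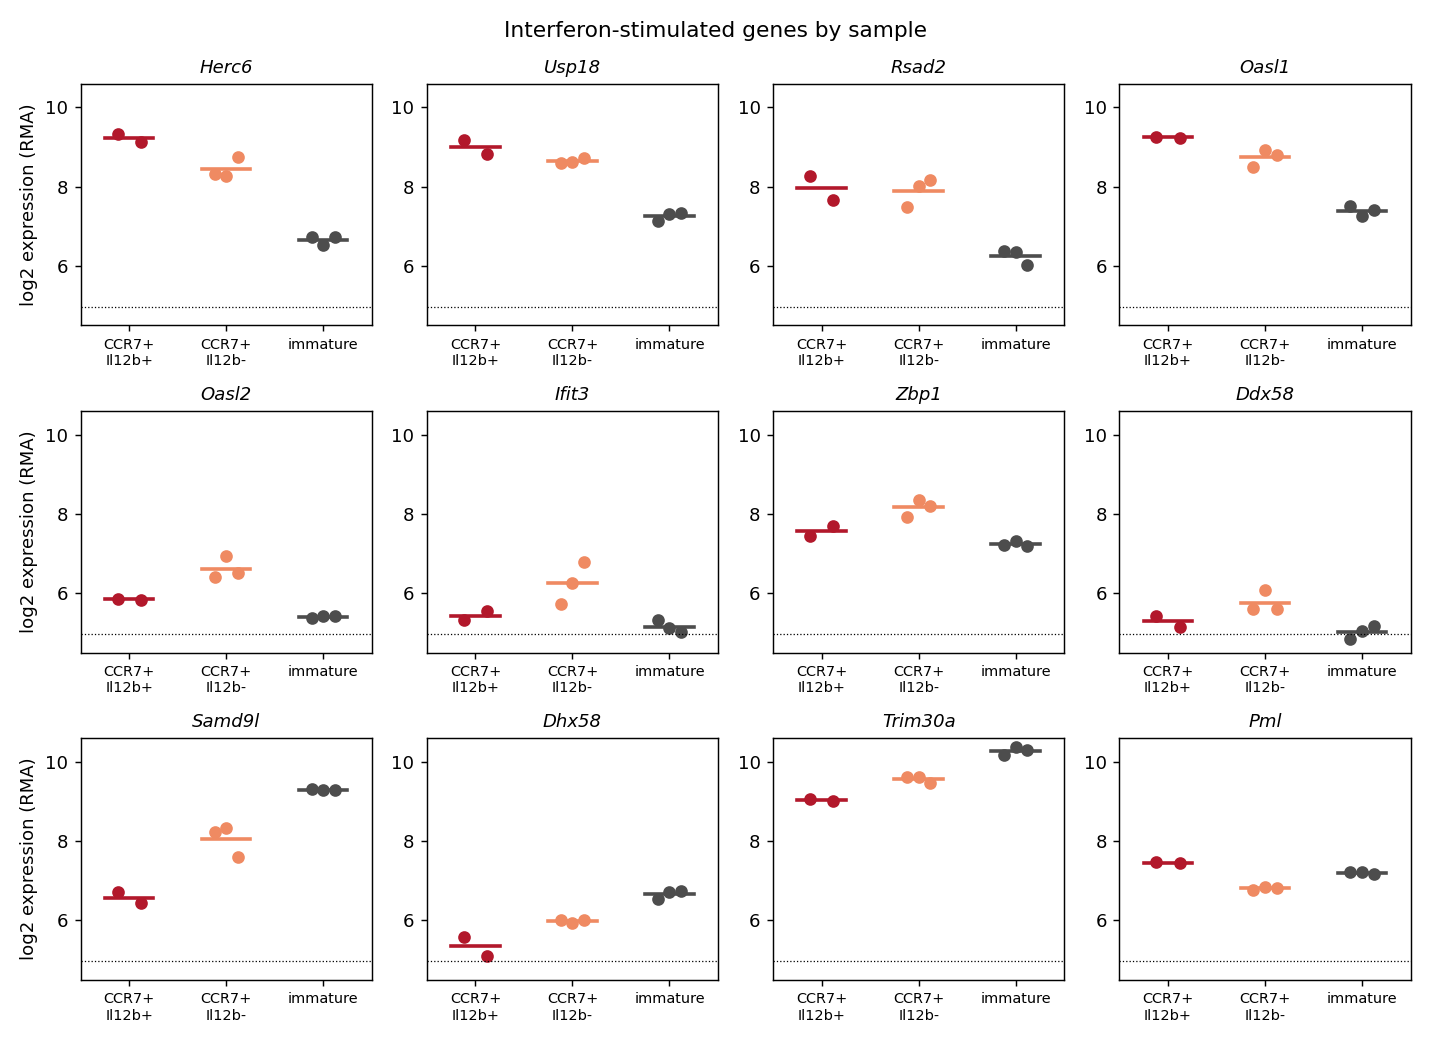
Log2 level of selected interferon-stimulated genes in every sample, with 1 point per sample, a bar at each group mean and the background mark as a dotted line. Herc6 is highest and Samd9l lowest in CCR7+Il12b+ cells, while Oasl2 and Zbp1 are highest in CCR7+Il12b- cells.

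The OAS and IFIT families act on viral RNA. OAS enzymes make a messenger that activates RNase L when they meet double-stranded RNA, Oasl1 and Oasl2 are their relatives, and IFIT proteins bind foreign RNA ends. Of 8 measured members 6 rose in CCR7+Il12b- cells and 4 in CCR7+Il12b+ cells against immature cells, and none fell in either. These are 75% and 50%, where 9.10% and 14.1% of all genes rose. In CCR7+Il12b+ cells 1 was lower than in CCR7+Il12b- cells (12.5%, with 4.47% of all genes) and none was higher. These genes resemble each other in sequence, and probes may share signal between relatives.

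Oasl1, which in mice limits translation of Irf7, rose most in the family. It had 9.27 and 9.22 in CCR7+Il12b+ cells, 8.49, 8.93 and 8.80 in CCR7+Il12b- cells and 7.51, 7.27 and 7.41 in immature cells. The groups did not overlap. The difference from immature cells was 1.84 ± 0.14 in CCR7+Il12b+ cells (adjusted p = 2.73e-06) and 1.34 ± 0.13 in CCR7+Il12b- cells (adjusted p = 3.13e-05), and 0.50 ± 0.14 between the CCR7+ fractions (adjusted p = 0.0647).

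Oasl2, its neighbour in the genome with no coding gene between them, had another order. Its levels were 5.86 and 5.84 in CCR7+Il12b+ cells, 6.42, 6.94 and 6.50 in CCR7+Il12b- cells and 5.38, 5.42 and 5.42 in immature cells. CCR7+Il12b- cells stood highest without overlap. Oasl2 differed from immature cells by 1.21 ± 0.13 in CCR7+Il12b- cells (adjusted p = 9.11e-05) and by 0.44 ± 0.15 in CCR7+Il12b+ cells (adjusted p = 0.0436). Between CCR7+Il12b+ and CCR7+Il12b- cells it differed by -0.77 ± 0.15 (adjusted p = 0.011). The rise in CCR7+Il12b+ cells was lost without any 1 of immature replicates 1, 2 and 3 (adjusted p = 0.087, 0.096 and 0.0964) or CCR7+Il12b+ replicates 1 and 2 (adjusted p = 0.119 and 0.138). The difference between the CCR7+ fractions was lost without CCR7+Il12b+ replicate 1 (adjusted p = 0.0658) or 2 (adjusted p = 0.0596).

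Ifit3, which stabilises the Ifit1 complex on RNA, was called in CCR7+Il12b- cells. It had 5.33 and 5.54 in CCR7+Il12b+ cells, 5.73, 6.27 and 6.78 in CCR7+Il12b- cells and 5.31, 5.12 and 5.01 in immature cells. The CCR7+Il12b- samples were spread over about 1 log2 unit but lay above the rest. The difference from immature cells was 1.11 ± 0.22 in CCR7+Il12b- cells (adjusted p = 0.0033) and 0.29 ± 0.24 in CCR7+Il12b+ cells (adjusted p = 0.4). Between the CCR7+ fractions it was -0.82 ± 0.24 (adjusted p = 0.0702), a value that passed the threshold without CCR7+Il12b- replicate 1 (adjusted p = 0.00816).

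Ifit1 lay below the background mark in all 3 immature samples, at 4.72, 4.82 and 4.73. It reached 5.43 and 5.69 in CCR7+Il12b+ cells and 5.19, 5.46 and 5.48 in CCR7+Il12b- cells. Against the mark this is at least 1.49-fold higher in CCR7+Il12b+ cells (adjusted p = 0.000678) and at least 1.32-fold in CCR7+Il12b- cells (adjusted p = 0.00294). Oas3, also below the mark in immature cells, was at least 1.23-fold higher in CCR7+Il12b+ cells (adjusted p = 0.0295) and at least 1.50-fold in CCR7+Il12b- cells (adjusted p = 0.00134). For Oas3 the call in CCR7+Il12b+ cells was lost without any 1 of the 3 immature replicates (adjusted p = 0.0615, 0.0646 and 0.0826) or without CCR7+Il12b+ replicate 2 (adjusted p = 0.262).

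Oas2 rose by 0.49 ± 0.11 in CCR7+Il12b- cells (adjusted p = 0.00584). In CCR7+Il12b+ cells its difference of 0.27 was not called (adjusted p = 0.108), but it passed without CCR7+Il12b+ replicate 1 (adjusted p = 0.0408). Oas1a and Ifit2 were called in neither comparison with all 8 samples. Oas1a differed from immature cells by -0.14 in CCR7+Il12b+ cells and 0.53 in CCR7+Il12b- cells (adjusted p = 0.679 and 0.0921). Ifit2 differed by 0.15 and 0.35 (adjusted p = 0.497 and 0.0972). In CCR7+Il12b- cells both passed without either of the CCR7+Il12b+ replicates (adjusted p = 0.035 for Oas1a and 0.0456 for Ifit2), and Oas1a also without immature replicate 1 (adjusted p = 0.0495).

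Sensors detect viral nucleic acid in the cytosol. Against immature cells, 3 of 5 rose and 2 fell in CCR7+Il12b- cells, and 1 rose and 2 fell in CCR7+Il12b+ cells. Of all genes, 9.10% rose and 14.5% fell in the first comparison, and 14.1% and 17.9% in the second. In CCR7+Il12b+ cells 2 were lower than in CCR7+Il12b- cells (40%, with 4.47% of all genes) and none was higher.

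The RIG-I-like receptors split. Ifih1 (MDA5, the receptor for long double-stranded RNA) rose by 0.52 ± 0.13 in CCR7+Il12b+ cells (adjusted p = 0.0109) and 0.77 ± 0.12 in CCR7+Il12b- cells (adjusted p = 0.00077). Ddx58 (RIG-I itself) rose by 0.74 ± 0.15 in CCR7+Il12b- cells (adjusted p = 0.0043), and its difference in CCR7+Il12b+ cells was 0.27 (adjusted p = 0.257). Without CCR7+Il12b+ replicate 1 the call of Ifih1 in CCR7+Il12b+ cells was lost (adjusted p = 0.0571).

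Dhx58 (LGP2), the relative that lacks the signalling domain of the other receptors, fell. Its levels were 5.59 and 5.10 in CCR7+Il12b+ cells, 6.0, 5.93 and 6.02 in CCR7+Il12b- cells and 6.54, 6.72 and 6.74 in immature cells. The groups did not overlap. Against immature cells it differed by -1.32 ± 0.15 in CCR7+Il12b+ cells (adjusted p = 3.88e-05) and by -0.68 ± 0.13 in CCR7+Il12b- cells (adjusted p = 0.00319). The difference between the CCR7+ fractions was -0.64 ± 0.15 (adjusted p = 0.0249), and it was lost without CCR7+Il12b- replicate 1 or 2 (adjusted p = 0.0669 and 0.0649) or CCR7+Il12b+ replicate 2 (adjusted p = 0.154).

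Eif2ak2 (PKR), the kinase that halts translation on meeting double-stranded RNA, fell in both CCR7+ fractions. It had 6.48 and 6.07 in CCR7+Il12b+ cells, 7.05, 6.68 and 6.57 in CCR7+Il12b- cells and 7.58, 7.33 and 7.34 in immature cells. No group overlapped another. The differences from immature cells were -1.14 ± 0.17 (adjusted p = 0.000361) in CCR7+Il12b+ cells and -0.65 ± 0.15 (adjusted p = 0.01) in CCR7+Il12b- cells. CCR7+Il12b+ and CCR7+Il12b- cells differed by -0.49, which was not called (adjusted p = 0.137).

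Zbp1, a sensor of left-handed nucleic acid that starts necroptosis, peaked in CCR7+Il12b- cells. Its levels were 7.44 and 7.69 in CCR7+Il12b+ cells, 7.93, 8.36 and 8.20 in CCR7+Il12b- cells and 7.23, 7.30 and 7.18 in immature cells. CCR7+Il12b- cells lay above both other groups. The difference from immature cells was 0.93 ± 0.13 in CCR7+Il12b- cells (adjusted p = 0.0004) and 0.33 in CCR7+Il12b+ cells (adjusted p = 0.11). Between the CCR7+ fractions it was -0.60 ± 0.14 (adjusted p = 0.0302). That call was lost without immature replicate 2 or 3 (adjusted p = 0.0543 and 0.0501), CCR7+Il12b- replicate 2 or 3 (adjusted p = 0.109 and 0.0538) or CCR7+Il12b+ replicate 1 (adjusted p = 0.183).

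**Figure D3:**
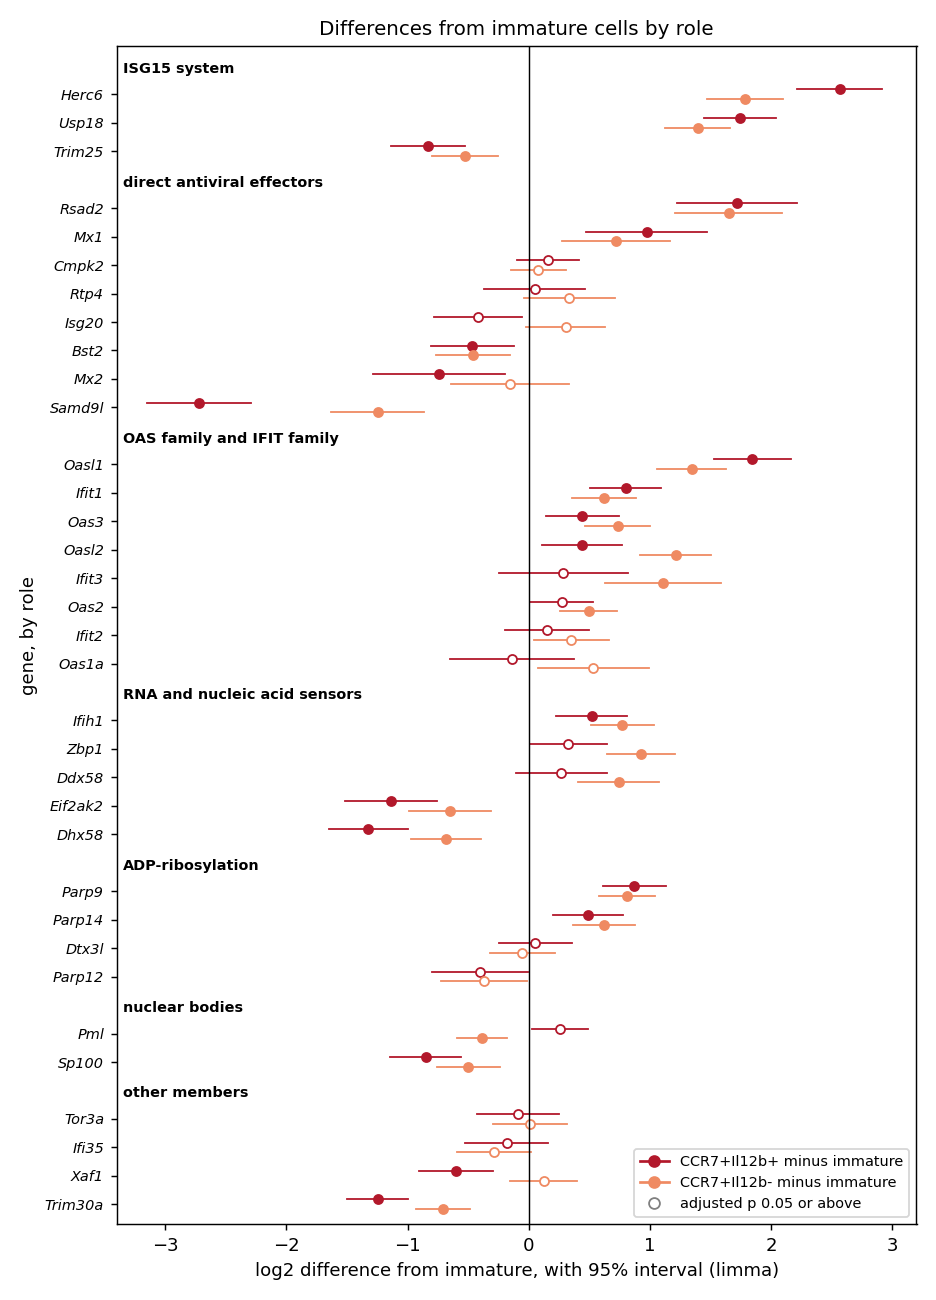
Log2 difference with its 95% confidence interval for each of the 34 measured members, grouped by role, for CCR7+Il12b+ and for CCR7+Il12b- cells against immature cells, with called genes as filled points. The OAS and IFIT genes lie right of 0 except Oas1a in CCR7+Il12b+ cells (-0.14), and Samd9l lies furthest left for both fractions.

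Direct antiviral effectors were divided. Of 8 measured, 2 rose and 2 fell in CCR7+Il12b- cells against immature cells (25% each, with 9.10% and 14.5% of all genes). In CCR7+Il12b+ cells 2 rose and 3 fell against immature cells (25% and 37.5%, with 14.1% and 17.9% of all genes). Between the CCR7+ fractions 2 were lower in CCR7+Il12b+ cells (25%, with 4.47% of all genes). Samd9l, which restricts poxvirus translation and limits growth of blood cells, had the largest fall of the list. Its levels were 6.71 and 6.44 in CCR7+Il12b+ cells, 8.24, 8.32 and 7.59 in CCR7+Il12b- cells and 9.32, 9.29 and 9.28 in immature cells. The 3 groups were apart, with the lowest CCR7+Il12b- value in replicate 3. Samd9l differed from immature cells by -2.72 ± 0.19 in CCR7+Il12b+ cells (a 6.59-fold lower level, adjusted p = 1.48e-06) and by -1.25 ± 0.17 in CCR7+Il12b- cells (2.37-fold lower, adjusted p = 0.000406). Between the CCR7+ fractions it differed by -1.48 ± 0.19 (adjusted p = 0.00122), and the call held in every setting run.

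Rsad2 (viperin), an enzyme that makes a chain-terminating nucleotide, rose in both CCR7+ fractions. It had 8.27 and 7.66 in CCR7+Il12b+ cells, 7.50, 8.03 and 8.17 in CCR7+Il12b- cells and 6.39, 6.34 and 6.01 in immature cells. The CCR7+ fractions overlapped and both lay above immature cells. The differences from immature cells were 1.72 ± 0.22 (adjusted p = 0.000123) in CCR7+Il12b+ cells and 1.65 ± 0.20 (adjusted p = 0.000167) in CCR7+Il12b- cells, with 0.07 ± 0.22 between the fractions (adjusted p = 0.934). Cmpk2, a nucleotide kinase adjacent to Rsad2, lay below the background mark in every group, so no fold is given.

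Mx1 and Mx2 are dynamin-like GTPases that trap viral nucleoprotein. Mx1 had 9.80 and 9.33 in CCR7+Il12b+ cells, 9.48, 9.20 and 9.24 in CCR7+Il12b- cells and 9.05, 8.50 and 8.21 in immature cells. Every CCR7+ sample lay above every immature one. It rose by 0.97 ± 0.23 in CCR7+Il12b+ cells (adjusted p = 0.00621) and by 0.72 ± 0.20 in CCR7+Il12b- cells (adjusted p = 0.0242). The call in CCR7+Il12b- cells was lost without immature replicate 2 or 3 (adjusted p = 0.0854 and 0.104) or CCR7+Il12b- replicate 1 or 3 (adjusted p = 0.0705 and 0.0513), and that in CCR7+Il12b+ cells without CCR7+Il12b+ replicate 1 (adjusted p = 0.0704).

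Mx2 did not follow. It differed from immature cells by -0.74 ± 0.25 in CCR7+Il12b+ cells (adjusted p = 0.0411) and by -0.15 in CCR7+Il12b- cells (adjusted p = 0.668). The lower level came mainly from CCR7+Il12b+ replicate 2, at 5.85 against 6.93 in replicate 1, and the adjusted p without it was 0.474. The call was also lost without any 1 of the immature replicates (adjusted p = 0.104, 0.0859 and 0.0544) or CCR7+Il12b- replicate 2 (adjusted p = 0.0577).

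Bst2 (tetherin), which holds budding virus on the cell surface, was lower in both CCR7+ fractions, at a difference of -0.46 ± 0.15 in CCR7+Il12b+ cells (adjusted p = 0.0398) and -0.46 ± 0.14 in CCR7+Il12b- cells (adjusted p = 0.0322). The call in CCR7+Il12b+ cells was lost without immature replicate 2 or 3 (adjusted p = 0.125 and 0.136) or CCR7+Il12b+ replicate 1 or 2 (adjusted p = 0.103 and 0.145). The call in CCR7+Il12b- cells was lost without immature replicate 2 or 3 (adjusted p = 0.125 and 0.138) or CCR7+Il12b- replicate 1 or 3 (adjusted p = 0.0954 and 0.0957). In CCR7+Il12b- cells the samples overlapped the immature ones. Because the gate used Bst2 protein, its level is a property of the sort as well.

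Isg20, an exonuclease of RNA, had 6.22 and 5.79 in CCR7+Il12b+ cells and 6.57, 6.99 and 6.61 in CCR7+Il12b- cells, with 6.33, 6.40 and 6.53 in immature cells. The CCR7+ fractions did not overlap and differed by -0.72 ± 0.17 (adjusted p = 0.0244). Neither differed from immature cells past the threshold, at -0.42 in CCR7+Il12b+ cells (adjusted p = 0.0796) and 0.30 in CCR7+Il12b- cells (adjusted p = 0.176). The call between the fractions was lost without CCR7+Il12b- replicate 2 (adjusted p = 0.0831) or CCR7+Il12b+ replicate 2 (adjusted p = 0.174), and the difference of CCR7+Il12b+ from immature cells passed without CCR7+Il12b+ replicate 1 (adjusted p = 0.0282). Rtp4, a chaperone of opioid and taste receptors that binds viral RNA, was near the mark and not called in any comparison.

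Proteins of the ADP-ribosylation group add ADP-ribose to targets or bind it. Parp9 forms a ligase with Dtx3l, and their genes lie beside Parp14 with no coding gene between. Of the 4 members 2 rose against immature cells in each CCR7+ fraction and none was called between the fractions. Of all genes 9.10% rose in CCR7+Il12b- cells and 14.1% in CCR7+Il12b+ cells. Parp9 had 8.47 and 8.31 in CCR7+Il12b+ cells, 8.43, 8.21 and 8.36 in CCR7+Il12b- cells and 7.56, 7.51 and 7.49 in immature cells. The CCR7+ samples formed 1 narrow band above the immature ones. The differences from immature cells were 0.87 ± 0.12 (adjusted p = 0.000151) in CCR7+Il12b+ cells and 0.81 ± 0.10 (adjusted p = 0.000238) in CCR7+Il12b- cells.

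Parp14 had 8.01 and 8.02 in CCR7+Il12b+ cells, 8.01, 8.32 and 8.12 in CCR7+Il12b- cells and 7.41, 7.67 and 7.49 in immature cells. It rose by 0.49 ± 0.13 in CCR7+Il12b+ cells (adjusted p = 0.014) and 0.62 ± 0.12 in CCR7+Il12b- cells (adjusted p = 0.00268). Its call in CCR7+Il12b+ cells was lost without CCR7+Il12b+ replicate 2 (adjusted p = 0.062). Dtx3l, which sits between these genes, differed from immature cells by 0.05 (95% confidence interval -0.25 to 0.35) in CCR7+Il12b+ cells and -0.05 (-0.32 to 0.22) in CCR7+Il12b- cells.

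Parp12, a mono-ADP-ribosyl transferase of the Golgi and stress granules, had 7.76 and 7.19 in CCR7+Il12b+ cells, 7.36, 7.64 and 7.52 in CCR7+Il12b- cells and 7.64, 7.98 and 8.0 in immature cells. The CCR7+Il12b+ samples overlapped the immature ones. The difference from immature cells was -0.40 in CCR7+Il12b+ cells (adjusted p = 0.119) and -0.37 in CCR7+Il12b- cells (adjusted p = 0.132). Without CCR7+Il12b+ replicate 1 the difference in CCR7+Il12b+ cells passed the threshold (adjusted p = 0.019).

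Pml and Sp100 build nuclear bodies that restrict DNA viruses. Sp100 fell in both CCR7+ fractions. Its levels were 8.59 and 8.29 in CCR7+Il12b+ cells, 8.94, 8.78 and 8.65 in CCR7+Il12b- cells and 9.25, 9.28 and 9.34 in immature cells. Against immature cells it differed by -0.85 ± 0.13 in CCR7+Il12b+ cells (adjusted p = 0.000433) and -0.50 ± 0.12 in CCR7+Il12b- cells (adjusted p = 0.00989).

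Pml was lowest in CCR7+Il12b- cells. It had 7.47 and 7.45 in CCR7+Il12b+ cells, 6.77, 6.85 and 6.81 in CCR7+Il12b- cells and 7.21, 7.22 and 7.17 in immature cells. No groups overlapped. It differed by 0.65 ± 0.10 between CCR7+Il12b+ and CCR7+Il12b- cells (adjusted p = 0.00399), and this call held in every setting run. Against immature cells it differed by -0.39 ± 0.09 in CCR7+Il12b- cells (adjusted p = 0.0111, or 0.0529 without immature replicate 2) and by 0.26 in CCR7+Il12b+ cells, which was not called (adjusted p = 0.0825) but passed after cyclic loess (adjusted p = 0.0326) or a further quantile step (adjusted p = 0.0345).

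Of the 4 other measured genes 1 fell in CCR7+Il12b- cells and 2 in CCR7+Il12b+ cells against immature cells. Between the fractions 2 were lower in CCR7+Il12b+ than in CCR7+Il12b- cells. Of all genes 14.5%, 17.9% and 4.47% were lower in these comparisons. Trim30a, a mouse ligase that restrains NF-kB signalling, had 9.06 and 9.0 in CCR7+Il12b+ cells, 9.62, 9.62 and 9.47 in CCR7+Il12b- cells and 10.18, 10.36 and 10.28 in immature cells. The groups did not overlap. It differed from immature cells by -1.25 ± 0.11 in CCR7+Il12b+ cells (adjusted p = 9.39e-06) and -0.71 ± 0.10 in CCR7+Il12b- cells (adjusted p = 0.000531). Between the fractions the difference of -0.54 ± 0.11 (adjusted p = 0.0171) was lost without CCR7+Il12b- replicate 1 or 2 (adjusted p = 0.0558 and 0.0674) or CCR7+Il12b+ replicate 1 or 2 (adjusted p = 0.0642 and 0.0759). Trim30a has close relatives whose transcripts may share its probes.

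Xaf1, which opposes the apoptosis inhibitor XIAP, was lower in CCR7+Il12b+ cells than in the rest. It had 6.99 and 6.63 in CCR7+Il12b+ cells, 7.61, 7.51 and 7.48 in CCR7+Il12b- cells and 7.53, 7.46 and 7.25 in immature cells. CCR7+Il12b+ cells differed from immature cells by -0.60 ± 0.14 (adjusted p = 0.00624) and from CCR7+Il12b- cells by -0.72 ± 0.14 (adjusted p = 0.0106). Both calls were lost without CCR7+Il12b+ replicate 2 (adjusted p = 0.0732 and 0.0777). CCR7+Il12b- cells differed from immature cells by 0.12 (adjusted p = 0.531).

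Ifi35, a binding partner of Nmi, had 8.19 and 7.67 in CCR7+Il12b+ cells, 7.77, 7.80 and 7.92 in CCR7+Il12b- cells and 7.98, 8.19 and 8.18 in immature cells. Its difference of -0.18 in CCR7+Il12b+ cells from immature cells was not called (adjusted p = 0.401), but passed without CCR7+Il12b+ replicate 1 (adjusted p = 0.0428). Tor3a, a torsin ATPase of the endoplasmic reticulum, differed by -0.09 (95% confidence interval -0.43 to 0.25) in CCR7+Il12b+ cells and 0.01 (-0.29 to 0.32) in CCR7+Il12b- cells.

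Members with and without the response element were found on both sides. In CCR7+Il12b- against immature cells, 6 of 9 higher members with a window held the motif, against 3 of 7 lower members and 1 of 8 that were not called. In CCR7+Il12b+ against immature cells the counts were 4 of 7 higher, 3 of 7 lower and 3 of 10 not called. Of the promoters shown above, those of Ifit1, Oas3 and Rsad2 belong to members higher in both CCR7+ fractions, that of Ifit3 to a member higher in CCR7+Il12b- cells, and those of Trim30a and Bst2 to members lower in both. Herc6, Samd9l, Oasl1 and Oasl2 had windows without it. No windows were given for the other 10 measured members.

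Genes that make interferon and carry its signal were set beside the members. Of 13 measured genes of interferon production 3 rose and 3 fell in each CCR7+ fraction against immature cells, or 23.1% each way. Of all genes 9.10% rose and 14.5% fell in CCR7+Il12b- cells, and 14.1% and 17.9% in CCR7+Il12b+ cells. The interferon genes Ifnb1, Ifna4 and Ifne lay below the background mark in every group and were not called. Ifna2 lay above it and was not called either, at 5.24 and 5.87 in CCR7+Il12b+ cells, 5.39, 5.10 and 5.10 in CCR7+Il12b- cells and 5.55, 5.51 and 5.44 in immature cells. Ifnl2, an interferon lambda gene, had 7.70 and 7.71 in CCR7+Il12b+ cells, 7.51, 7.71 and 7.54 in CCR7+Il12b- cells and 7.05, 7.23 and 7.08 in immature cells. It rose by 0.59 ± 0.12 in CCR7+Il12b+ cells (adjusted p = 0.00237) and 0.47 ± 0.10 in CCR7+Il12b- cells (adjusted p = 0.00715), with all CCR7+ samples above all immature ones. Ifnl2, Ifna2 and Ifna4 were also named in rows with several symbols, which were left out. Ifnl3 had no row of 1 symbol, and whether the Ifnl2 row shares signal with it was not tested. Irf7, the factor that amplifies interferon alpha genes, was at 6.77 and 6.43 in CCR7+Il12b+ cells, 8.02, 8.57 and 8.35 in CCR7+Il12b- cells and 8.22, 8.40 and 8.41 in immature cells. CCR7+Il12b+ cells lay far below both other groups, which overlapped. Irf7 differed by -1.74 ± 0.17 between CCR7+Il12b+ and immature cells (adjusted p = 1.36e-05) and by -1.71 ± 0.17 between CCR7+Il12b+ and CCR7+Il12b- cells (adjusted p = 0.000319). Between CCR7+Il12b- and immature cells it differed by -0.03 (95% confidence interval -0.36 to 0.30).

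Of 13 measured type I signalling genes 4 rose and 1 fell in each CCR7+ fraction against immature cells, or 30.8% and 7.69%. The shares of all genes were 9.10% and 14.5% for CCR7+Il12b- cells, and 14.1% and 17.9% for CCR7+Il12b+ cells. Irf1, which can drive many of the same promoters without Stat2, had 11.80 and 11.26 in CCR7+Il12b+ cells, 10.47, 10.49 and 10.78 in CCR7+Il12b- cells and 9.08, 8.80 and 8.74 in immature cells. The groups stood apart in that order. Against immature cells it rose by 2.66 ± 0.18 in CCR7+Il12b+ cells (adjusted p = 9.68e-07) and 1.71 ± 0.16 in CCR7+Il12b- cells (adjusted p = 2.46e-05), and it differed by 0.94 ± 0.18 between the fractions (adjusted p = 0.00919). Tyk2, the kinase bound to Ifnar1, rose by 1.53 ± 0.12 (adjusted p = 2.14e-06) and 1.10 ± 0.10 (adjusted p = 2.61e-05) in the same order. Stat2 differed from immature cells by -0.06 (95% confidence interval -0.39 to 0.27) in CCR7+Il12b+ cells and 0.03 (-0.26 to 0.32) in CCR7+Il12b- cells, and Irf9 by -0.31 (adjusted p = 0.119) and 0.13 (adjusted p = 0.494).

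Of the 4 interferon gamma genes Jak2 rose and Ifngr1 fell in both CCR7+ fractions, or 25% each way. Ifngr1, the ligand-binding receptor chain, had 7.87 and 7.80 in CCR7+Il12b+ cells, 9.91, 9.90 and 9.10 in CCR7+Il12b- cells and 11.01, 11.06 and 11.03 in immature cells. It differed from immature cells by -3.20 ± 0.21 in CCR7+Il12b+ cells (adjusted p = 8.27e-07) and -1.40 ± 0.19 in CCR7+Il12b- cells (adjusted p = 0.000317). A further 30 measured genes known to respond to interferon were also divided. In CCR7+Il12b- cells 15 rose and 3 fell against immature cells (50% and 10%, with 9.10% and 14.5% of all genes). In CCR7+Il12b+ cells 10 rose and 10 fell (33.3% each, with 14.1% and 17.9% of all genes). CCR7+Il12b+ cells had 1 higher and 11 lower than CCR7+Il12b- cells (3.33% and 36.7%, with 2.61% and 4.47% of all genes).

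Examples of that further list stand at both ends. Epsti1 differed from immature cells by 2.43 ± 0.11 in CCR7+Il12b+ cells (adjusted p = 7.13e-08) and 1.87 ± 0.10 in CCR7+Il12b- cells (adjusted p = 3.69e-07). Ly6e, a surface protein that blocks virus fusion, differed by -2.50 ± 0.16 (adjusted p = 6.13e-07) and -0.57 ± 0.14 (adjusted p = 0.0121). Ifitm3, which stops virus entry from endosomes, differed by -1.92 ± 0.18 in CCR7+Il12b+ cells (adjusted p = 9.53e-06) and by -0.30 in CCR7+Il12b- cells (adjusted p = 0.221). Between the CCR7+ fractions Ly6e differed by -1.93 ± 0.16 (adjusted p = 0.000124) and Ifitm3 by -1.62 ± 0.18 (adjusted p = 0.000486).

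**Figure D4:**
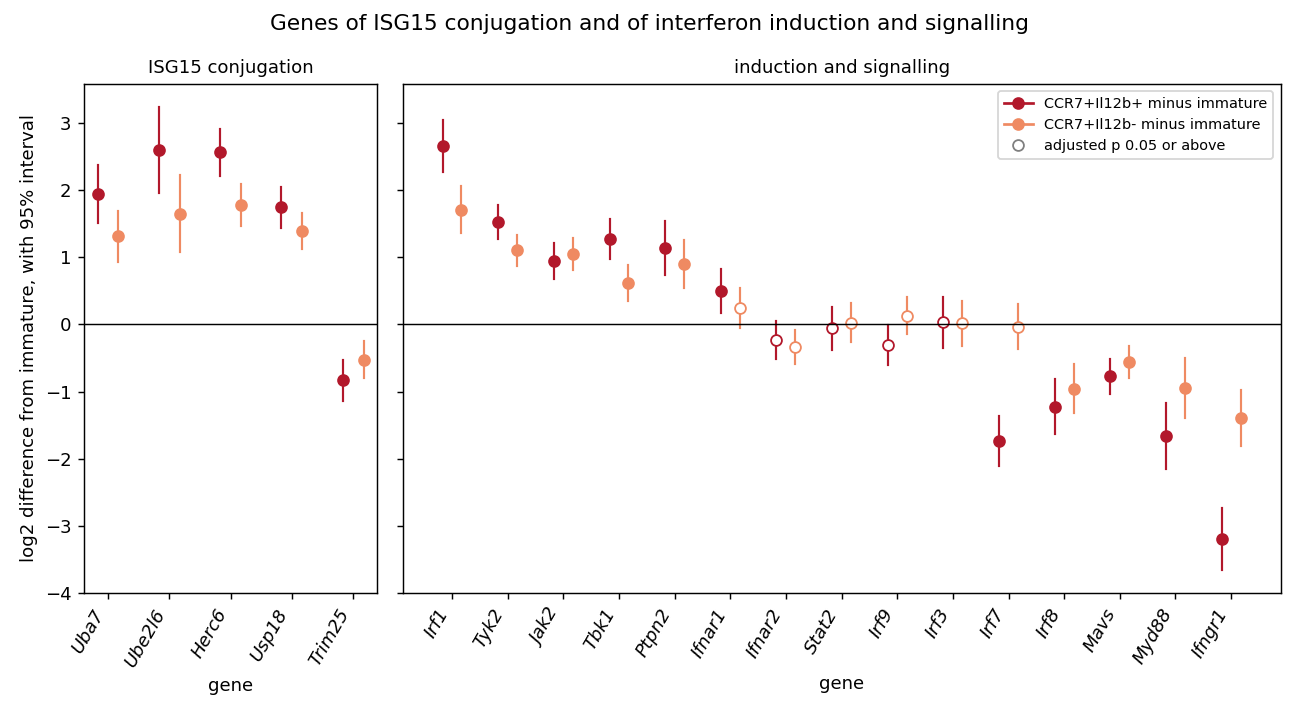
Log2 difference from immature cells, with its 95% confidence interval, of genes of Isg15 conjugation and of interferon induction and signalling, picked from the lists after their values were seen, with called genes as filled points. Irf1, Uba7, Ube2l6 and Herc6 lie above 0 in both CCR7+ fractions, and Irf7 lies at -1.74 in CCR7+Il12b+ cells and near 0 in CCR7+Il12b- cells.

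Markers of other cells were read in the same samples. The 12 XCR1+ dendritic cell markers lay above background in every group. Their mean log2 level was 8.77 to 8.96 in CCR7+Il12b+, 9.63 to 10.1 in CCR7+Il12b- and 10.4 to 10.5 in immature samples. Against immature cells 1 of them rose and 9 fell in CCR7+Il12b+ cells, and 1 rose and 6 fell in CCR7+Il12b- cells. Of all genes 14.1% rose and 17.9% fell in the first comparison, and 9.10% and 14.5% in the second. Xcr1 itself had a mean of 7.88 in CCR7+Il12b+, 9.54 in CCR7+Il12b- and 10.90 in immature cells. That of Naaa was 6.94, 9.84 and 11.76. Plasmacytoid dendritic cells make much interferon and Irf7, and their 8 measured markers summed to 50.0 to 50.5 in CCR7+Il12b+, 52.6 to 53.2 in CCR7+Il12b- and 53.3 to 55.2 in immature samples. Their sum was lowest in the samples where Irf7, Trim30a and Samd9l were lowest. CCR7+Il12b- cells differed from immature cells by -0.03 in Irf7, -0.71 in Trim30a and -1.25 in Samd9l. Between the CCR7+ fractions 1 of the 8 markers was lower in CCR7+Il12b+ cells (12.5%, with 4.47% of all genes), and 7 were not called. Of these 8, 1 rose and 4 fell in CCR7+Il12b+ cells and 2 rose and 4 fell in CCR7+Il12b- cells, against immature cells. Siglech, Ccr9, Tcf4 and Bst2 fell in both fractions. Spib rose by 1.41 ± 0.30 in CCR7+Il12b+ cells (adjusted p = 0.00373) and 1.69 ± 0.27 in CCR7+Il12b- cells (adjusted p = 0.000968), and Pacsin1 by 0.43 ± 0.11 in CCR7+Il12b- cells (adjusted p = 0.0156). Their part in those results was not tested.

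The 6 measured B cell markers summed to 31.8 to 32.6 in CCR7+Il12b+, 34.0 to 35.4 in CCR7+Il12b- and 30.2 to 31.8 in immature samples. This sum was highest in the samples where Oasl2, Ifit3 and Zbp1 were highest. Between the CCR7+ fractions 1 of the 6 was lower in CCR7+Il12b+ cells (16.7%, with 4.47% of all genes), and 5 were not called. Of the 6 markers 4 (Ms4a1, Cd79b, Pax5 and Blk) lay above the mark in each group, and Cd79a and Ebf1 lay below it. In CCR7+Il12b- cells 3 of the 6 (Ms4a1, Cd79b and the dim Cd79a) were called higher than in immature cells and none lower. In CCR7+Il12b+ cells 1 was higher and 1 lower (16.7% each). For these and the marker sets that follow, 9.10% of all genes rose and 14.5% fell in CCR7+Il12b- cells. Of all genes in CCR7+Il12b+ cells 14.1% rose and 17.9% fell. Ms4a1 had 8.10 and 7.70 in CCR7+Il12b+ cells, 8.91, 8.30 and 8.28 in CCR7+Il12b- cells and 6.97, 6.96 and 7.03 in immature cells. It rose by 0.91 ± 0.19 in CCR7+Il12b+ cells (adjusted p = 0.00328) and 1.51 ± 0.17 in CCR7+Il12b- cells (adjusted p = 0.000104). Cd79b differed from immature cells by -0.58 ± 0.20 in CCR7+Il12b+ cells (adjusted p = 0.0499) and 0.57 ± 0.18 in CCR7+Il12b- cells (adjusted p = 0.0406). The 10 macrophage markers summed to 70.8 to 71.0, 73.1 to 75.0 and 71.6 to 73.6 in the same order of groups, with Fcgr1 and Mertk below the mark throughout. These markers moved both ways against immature cells: 2 rose and 4 fell in CCR7+Il12b+ cells, and 3 rose and 3 fell in CCR7+Il12b- cells. Spic rose by 3.06 ± 0.24 in CCR7+Il12b+ cells and 3.15 ± 0.22 in CCR7+Il12b- cells (adjusted p = 3.12e-06 and 2.8e-06), and Vcam1 by 3.17 ± 0.19 and 2.57 ± 0.17 (adjusted p = 4.98e-07 and 2.15e-06). Lyz2 fell by 3.11 ± 0.29 and 1.45 ± 0.26 (adjusted p = 9.77e-06 and 0.00185), and Cd68 by 2.67 ± 0.23 and 1.38 ± 0.21 (adjusted p = 5.65e-06 and 0.000625), in the same order of fractions. Ccr2 fell in both as well, and Adgre1, below the mark in immature cells, was at least 1.29-fold higher in CCR7+Il12b- cells (adjusted p = 0.00171). The 5 T cell markers summed to 24.1 to 25.4, 26.7 to 27.5 and 26.1 to 26.5. Cd3d and Cd3g lay below the mark in each group, and Cd3e, Cd4 and Cd5 above it. Against immature cells 3 of the 5 fell and none rose in CCR7+Il12b+ cells. In CCR7+Il12b- cells 1 rose (Cd3e, by 0.37 ± 0.12, adjusted p = 0.0427) and none fell. The 7 NK cell markers summed to 30.6 to 31.8, 33.3 to 34.6 and 33.5 to 33.7. Ncr1, Klrb1c, Gzma and Il2rb lay below the mark in each group. Against immature cells 1 fell (Klrd1) and none rose in CCR7+Il12b+ cells. In CCR7+Il12b- cells 2 rose (Nkg7 and the dim Il2rb) and 1 fell (Klrd1). The mean of Klrd1 was 4.81, 7.19 and 8.21 in the same order of groups. The 7 neutrophil markers summed to 32.1 to 32.6, 31.8 to 32.9 and 30.9 to 32.6, and none was called. The part of these cells in the results was not tested. Which samples were made from 3 ng and which from 20 ng of RNA was not given, and that effect was not tested either.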

How the data were processed

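RNA from sorted cells was amplified in a pair of rounds, labelled with biotin and hybridised to 8 arrays, per the labels' protocols. The deposited values are the authors' log2 values per probe set. The submitters' processing notes name RMA and the oligo package, with no version or build. RMA equalises arrays, so a change in total RNA per cell is not visible, yet array medians still ran from 5.25 to 5.46. Rows with several symbols (1621) or none (12146) of 35556 were left out.

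All 8 samples entered 1 limma 3.58.1 model (R 4.3.3) with 3 group means, fitted with lmFit and eBayes, which gave 5 residual and 5.86 prior degrees of freedom. Two-sided tests were used, with Benjamini-Hochberg adjustment over 19938 genes and a threshold of 0.05. No gene was filtered before testing. A gene below the background mark in the group with less signal is given as a bound, with the higher of the mark and its value standing for that group. The script was tested on simulated data. Every member could be named, and per-sample values are given for the 3 of largest change in each role. The members and lists were chosen with earlier results of these data known. Alternatives covered other scalings, filters, array weights, eBayes settings, a replicate block, only the compared groups and each sample left out. Within groups arrays correlated at 0.986 to 0.996. CCR7+Il12b- replicate 3 correlated at 0.986 and 0.989 with its own group and at 0.980 and 0.981 with the CCR7+Il12b+ arrays. The number of arrays limits the precision, above all with 2 of CCR7+Il12b+ cells.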

Additional observations from a re-analysis of the deposited data

Results flagged for a closer look

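In 3 members the CCR7+ fractions had mean differences from immature cells of opposite sign. These fractions also differed from each other by the test between them. For Xaf1 the difference of CCR7+Il12b- from immature cells was only 0.12 (adjusted p = 0.531), and the samples of those groups overlapped. Pml was higher in CCR7+Il12b+ than in CCR7+Il12b- cells, by 0.65 on the log2 scale (adjusted p = 0.00399). Isg20 was lower in CCR7+Il12b+ than in CCR7+Il12b- cells, at -0.72 (adjusted p = 0.0244), as was Xaf1, at -0.72 (adjusted p = 0.0106). All samples of CCR7+Il12b+ and CCR7+Il12b- cells stood apart in each. Leaving out CCR7+Il12b+ replicate 2 ended the calls of Isg20 (adjusted p = 0.174) and Xaf1 (adjusted p = 0.0777). The call of Isg20 also ended without CCR7+Il12b- replicate 2 (adjusted p = 0.0831), with only the compared groups (adjusted p = 0.0632) and under a replicate block (adjusted p = 0.0674). Of the 6 differences of these genes from immature cells, those of Xaf1 in CCR7+Il12b+ cells (adjusted p = 0.00624) and of Pml in CCR7+Il12b- cells (adjusted p = 0.0111) were called. That of Pml in CCR7+Il12b+ cells passed after cyclic loess (adjusted p = 0.0326) or a quantile step (adjusted p = 0.0345).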

How the results depend on the processing

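No member changed the direction of a called difference under any alternative run. Leaving out 1 sample at a time gave 14 to 17 higher and 6 to 8 lower members (20 to 25 in all) for CCR7+Il12b- against immature cells. It gave 8 to 11 higher and 6 to 11 lower (14 to 20 in all) for CCR7+Il12b+ against immature cells, and 1 to 2 higher and 3 to 7 lower (4 to 9 in all) between CCR7+Il12b+ and CCR7+Il12b- cells. With CCR7+Il12b+ cells down to 1 sample, that sample is assumed to vary like the other groups. A fit of only the compared CCR7+ fractions, with fewer samples to estimate the spread, called 3 lower and 5 in all, against 7 and 9. Other alternatives gave 11 to 17 higher and 7 to 10 lower, 8 to 11 higher and 7 to 10 lower, and 2 higher and 3 to 8 lower in the same order of comparisons. For CCR7+Il12b- against immature cells the count of 11 higher came from the filter at the median of all genes. That filter left dim members untested and ended no call among those it kept. Calls ended by scaling, weights or eBayes settings were those of Mx1 and Bst2 for CCR7+Il12b- cells (adjusted p up to 0.0922), and of Bst2, Mx2, Oas3, Oasl2 and Parp14 for CCR7+Il12b+ cells (up to 0.185), both against immature cells. Calls gained with array weights were those of Oas1a (adjusted p = 0.0275), Ifi35 (0.0275), Isg20 (0.0319) and Parp12 (0.0333) for CCR7+Il12b- cells, and with other scalings those of Pml (0.0326 and 0.0345) and Isg20 (0.0379) for CCR7+Il12b+ cells against immature cells and of Ifit3 (0.0468 and 0.0478) between the CCR7+ fractions. Filters on low values also gained Ifit3 there (0.0449 and 0.0481). Deviations of same-numbered samples from their group means correlated at -0.169 to 0.216. With 2 or 3 arrays a group this cannot tell whether replicate numbers pair the samples. A replicate block gave 15 higher and 8 lower, 10 and 8, and 2 and 6 members. It ended the calls of Oasl2 (adjusted p = 0.0842) and Bst2 (0.0616) for CCR7+Il12b+ against immature cells and of Dhx58 (0.0652) and Isg20 (0.0674) between the CCR7+ fractions, where Eif2ak2 passed (0.0407). Centring each array on its median moved the median of all genes for CCR7+Il12b+ against immature cells to -0.05, against 0.09 as deposited, and the share of higher among called genes to 30.1% against 44.1%. For CCR7+Il12b- against immature cells that share was 27.7% against 38.5%. The arrays held 2 CCR7+Il12b+ samples, and members near the background mark have only bounds.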
